A study of Mus musculus with 36 samples.

Results

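Collagens and laminins are the long secreted chains from which basement membranes and the fibrous matrix around cells are built. They were taken from the deposited count table as the rows whose gene symbol begins with Col, digits, the letter a and a digit, or with Lam, one of a, b or c and a digit. The rule found 56 of the 16614 rows, namely 44 collagen chains, 11 laminin chains and Col4a3bp, whose name matches but which encodes a ceramide transfer protein and no matrix chain. The chains were sorted by type into 11 fibrillar, 6 type IV and 6 type VI chains, 9 FACIT chains, which sit on the surface of fibrils, 2 multiplexins, 3 short-chain, 4 transmembrane and 3 other collagens, and 5 α, 3 β and 3 γ laminin chains.

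The study asked whether FMRP, the RNA-binding protein lost in Fragile X syndrome, determines where ribosomes stall in the neuronal RNA granules that sediment to the bottom of a sucrose gradient. Ribosome-protected fragments (RPFs) were sequenced from that pellet and from fraction 5/6 of the same kind of gradient, which holds heavy polysomes, and RNA was sequenced from brain homogenate. Every group had 3 libraries, which made 36 libraries in 12 groups, and 10 brains were pooled for a preparation. Fragments of about 25 to just over 40 bases were cut from a gel, and the 3 footprint replicates of a condition carried different linkers and were then pooled for sequencing.

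All animals were 5 days old. The WT mice were C57BL/6, and the FMR1 KO mice carried a knockout of Fmr1 in the germ line, so that all cell types lacked FMRP. WT pellet, WT fraction 5/6, WT RNA, FMR1 KO pellet, FMR1 KO fraction 5/6 and FMR1 KO RNA were each made in a standard preparation, with 10 mM MgCl2 and nuclease scaled to the RNA at room temperature, and again in a low nuclease preparation with 2.5 mM MgCl2 and digestion at 4 °C. Nuclease dose and supplier, temperature and MgCl2 therefore changed together. The recovery of monosomes changed with them, from a sucrose gradient in low nuclease to a spin in standard. Their parts cannot be told apart. Whole brains include meninges, vessels and choroid plexus, so that a level here is an average over all cells, and fewer cells of a type and less RNA per cell cannot be told apart. The labels do not say that same-numbered libraries share brains, and p-values measure the spread between these 3 preparations of pooled brains.

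Levels are given as CPM (counts scaled to the library's total after Cdk8 was set aside), since that row took 36.7% to 63.4% of the counts of the standard footprint libraries. The standard footprint libraries held 1076 to 5781 counts on the 55 chains, the low nuclease footprint libraries 8132 to 35812 and the standard RNA libraries 28704 to 45600. Fmr1 checked the labels. WT pellets held it at 67.8, 67.1 and 64.6 CPM, FMR1 KO pellets at 4.93, 4.79 and 4.81 CPM and WT fraction 5/6 at 100.1, 68.6 and 3.17 CPM, so that the library labelled WT fraction 5/6 replicate 3 went against its label. The main counts of calls and the log2 differences that use it are given in the text with and without it. Counts by library size alone or at an unadjusted p are given only with it. In the low nuclease RNA, the libraries labelled WT replicate 2, FMR1 KO replicate 2 and FMR1 KO replicate 3 stood apart, with 4.77% to 9.22% of their counts on Cdk8 and 81.5% to 85.0% of the rest on 10 genes. The low nuclease footprint libraries held 2.69% to 5.62% on Cdk8 and the other 3 RNA libraries 0.0053% to 0.0241%. By this share the 3 that stood apart were nearer to footprints, though WT replicate 2 and FMR1 KO replicate 2 lay above the footprint range. By the share on 10 genes they resembled neither, with 9.62% to 13.9% in those footprints and 3.66% to 4.10% in the other RNA. Results that use them hold only as far as their labels do.

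Collagen chains are made on ribosomes attached to the endoplasmic reticulum, where prolines and lysines are hydroxylated and the chains wind into a triple helix that needs a glycine in each triplet of residues. Laminins are cross-shaped trimers of an α, a β and a γ chain that polymerise on cell surfaces, and together with type IV collagen, nidogen and perlecan or agrin they form basement membranes. In the brain these line blood vessels and the pial surface, where radial glial endfeet attach, and fibrillar collagens are made mainly in meninges and around vessels.

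The glycine repeat is visible in the coding sequence. Runs of codon triplets that each open with a glycine codon (GGN, N being any base) were searched for in the reading frame of the coding strand only. All 43 collagen chains with a coding sequence in the annotation held a run of at least 10 triplets, from 23 to 344 triplets long, while the longest run in any laminin chain was 3 triplets, and 0.483% of 16370 protein-coding rows held a run of at least 10. A stretch of 3 triplets is shown for a fibrillar, a network-forming and a beaded-filament chain, because these chains recur in the results and the repeat sets them apart from laminins (GRCm38, capitals mark the glycine codons). Col1a1 is shown at chr11:94939697-94939723 on the plus strand in coding exon 7, Col4a2 at chr8:11429447-11429473 on the plus strand in coding exon 29 and Col6a3 at chr1:90792419-90792445 on the minus strand in coding exon 19.
Col1a1: GGTccttctGGTcctcgtGGTctccct
Col4a2: GGGacacgaGGAgatgctGGActtcca
Col6a3: GGAcccaaaGGAgagacgGGAgacatc

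The coding sequences (CDS) of both families were long. The median was 4740 nt for collagens and 5448 nt for laminins, against 1350 nt for all protein-coding rows. Glycine codons made up a median 24.1% of collagen codons, 8.17% of laminin codons and 6.28% over all rows.

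In the RNA of the standard preparation, Col1a1 and Col1a2, the chains of collagen I, led by mean CPM, and Lamb1, Lamc1, Col4a1, Col26a1 and Col4a2 came next. Col1a1, the α1 chain of the main fibril of skin, bone and meninges, stood at 104, 24.9 and 53.3 CPM in WT and 25.8, 36.2 and 38.1 CPM in FMR1 KO. Col1a2, its partner chain, stood at 44.9, 13.5 and 29.4 CPM in WT and 14.2, 18.2 and 20.9 CPM in FMR1 KO. WT replicate 1 was highest for both, and the genotypes overlapped.

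Lamb1, the β chain of most embryonic laminins, stood at 21.2, 19.8 and 20.2 CPM in WT RNA and 16.4, 17.9 and 18.1 CPM in FMR1 KO RNA. Lamc1, the γ chain shared by nearly all laminins of vessels and pia, stood at 15.7, 13.5 and 13.4 CPM and 10.8, 9.98 and 13.6 CPM. These levels varied far less between libraries than those of collagen I, and for Lamb1 all FMR1 KO libraries lay below all WT libraries. Over the 6 standard RNA libraries the mean was 47.0 ± 29.6 CPM (SD, n = 6) for Col1a1, 23.5 ± 11.95 for Col1a2, 18.9 ± 1.76 for Lamb1, 12.8 ± 2.07 for Lamc1, 12.4 ± 3.46 for Col4a1, 10.5 ± 1.68 for Col26a1 and 9.69 ± 2.72 for Col4a2. Neighbours in this order overlapped in their libraries, except that every library had Lamb1 above the highest Lamc1. Among the 55 chains 43 in WT and 41 in FMR1 KO reached 1 CPM in all 3 libraries. Per kilobase of transcript, where genes can be compared with each other, mean RNA was 7.92 CPM per kb for Col1a1, 4.40 for Col1a2, 3.79 for Col26a1, 3.27 for Lamb1, 1.99 for Col9a2, 1.88 for Col4a1 and 1.68 for Lamc1.

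**Figure D1:**
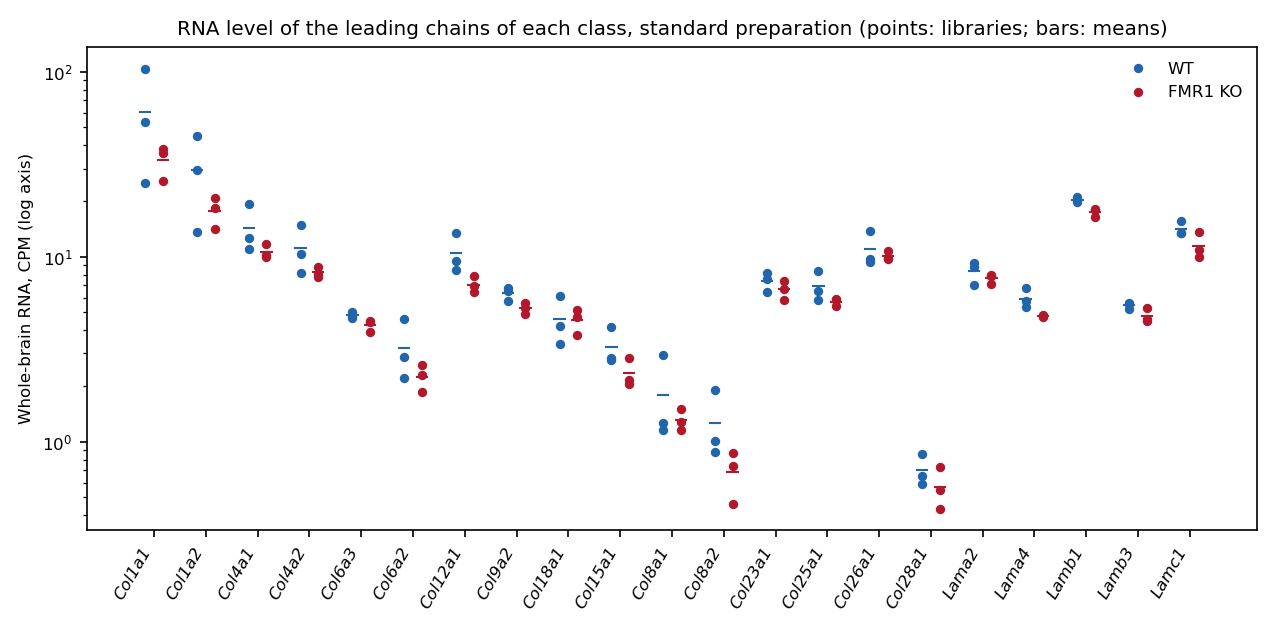
RNA level of the leading chains in whole brain, in CPM without Cdk8 on a log axis, with 1 point per standard library (WT blue, FMR1 KO red) and bars at group means. Col1a1 spans 24.9 to 104 CPM, whereas Lamb1 stays between 16.4 and 21.2 CPM.

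Levels of the fibrillar chains were set beside markers of other cells. The summed RNA of the 11 fibrillar chains was 183, 56.3 and 107 CPM in WT and 56.3, 73.0 and 84.1 CPM in FMR1 KO, while that of 8 fibroblast and meninges markers was 420, 212 and 273 CPM in WT and 257, 147 and 302 CPM in FMR1 KO. Both sums had the same order over the WT libraries but not over those of FMR1 KO, and both were highest in WT replicate 1, which also held the most blood marker RNA, 551 CPM against 235 to 362 CPM in the other libraries. The 8 endothelial markers summed to 20.4, 14.7 and 14.2 CPM in WT and 11.5, 14.0 and 14.3 CPM in FMR1 KO. Their part in the chains' levels was not tested.

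The comparison of pellet with fraction 5/6 footprints, called enrichment, asked which mRNAs have more of their ribosomes in the pellet. In the standard FMR1 KO preparation 42 of the 56 members passed the filter on low counts, and 13 of the 42 were higher in the pellet and 0 lower, while 10.1% of all 13326 genes tested were higher and 1.4% lower (edgeR's quasi-likelihood test, Benjamini-Hochberg adjusted p under 0.05). The median log2 difference was 0.91 over the members and 0.01 over all genes. A gene can pass the filter through a single group, so that a member low in fraction 5/6 could enter through the pellet and could hardly be called lower. In FMR1 KO fraction 5/6 Lama5 held 2, 7 and 4 counts and Col2a1 5, 6 and 2. Col6a1 held 2, 7 and 2 and Col4a5 6, 9 and 1, so that the sizes of their differences rest on few counts. In the low nuclease preparation 26 of 56 members in WT were higher and 0 lower, against 14.3% and 8.6% of all genes, and 10 of 55 in FMR1 KO were higher and 1 lower, against 9.31% and 10.7% of all genes. The medians there were 0.60 in WT and 0.68 in FMR1 KO, against -0.02 and -0.03 over all genes.

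The calls lay mostly in laminins and in fibrillar, type IV and type VI collagens. In standard FMR1 KO 4 of 9 laminin chains and 9 of 32 collagen chains were higher, and in low nuclease WT 9 of 11 and 16 of 44, a contrast between the families that was not tested. Of the 13 members higher in the standard FMR1 KO pellet, 12 were among the 26 higher in the low nuclease WT pellet, which is 92.3% of the first list and 46.2% of the second. Over all genes the 2 lists shared 76.8% of the first and 46.2% of the second. Lamb1, Lamb2, Lamc1, Lama5 and Col6a3 were higher in all 3 of these sample sets, which share no library. They were 5 of 42 members tested in all 3, and 5.73% of the 13275 genes so tested were higher in all 3. In at least 1 of the sets 28 of 56 members (50%) were higher, against 17.9% of 15768 genes.

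Lamb2 encodes the β chain of laminins at mature vessels, kidney and the neuromuscular junction, and lies in GRCm38 at chr9:108479736-108490530 on the plus strand (ENSMUSG00000052911). It stood at 4.28, 3.43 and 8.09 CPM in the standard FMR1 KO pellet and at 0.928, 1.74 and 1.40 CPM in fraction 5/6. All pellet libraries were above all fraction 5/6 libraries, and the log2 difference was 2.18 ± 0.36 (SE, adjusted p = 0.0126). Low nuclease WT libraries had Lamb2 at 10.9, 10.2 and 15.8 CPM in the pellet and 1.19, 1.26 and 1.77 CPM in fraction 5/6, a log2 difference of 3.24 ± 0.24 (SE, adjusted p = 0.004). In low nuclease FMR1 KO it stood at 3.70, 10.3 and 8.32 CPM and 0.826, 2.48 and 1.74 CPM, a log2 difference of 2.33 ± 0.49 (SE, adjusted p = 0.0294). The groups were apart in both, and Lamb2 had the highest called rise of the members in both low nuclease sets.

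Lamb1, the other abundant β chain (chr12:31265234-31329644, plus strand, ENSMUSG00000002900), stood at 11.3, 5.19 and 7.13 CPM in the FMR1 KO pellet and 2.17, 3.41 and 4.67 CPM in fraction 5/6. Low nuclease gave 23.0, 21.5 and 24.7 CPM against 6.83, 8.04 and 8.52 CPM in WT, and 11.9, 17.97 and 15.4 CPM against 5.30, 9.06 and 6.92 CPM in FMR1 KO. The pellet was above fraction 5/6 in every library of all 3 sets. The log2 differences were 1.57 ± 0.28 (SE, adjusted p = 0.0159) in the standard FMR1 KO set, 1.68 ± 0.11 (SE, adjusted p = 0.00273) in low nuclease WT and 1.28 ± 0.21 (SE, adjusted p = 0.0178) in low nuclease FMR1 KO. Lamb3, the β chain of skin laminin, did not pass in any of these sets, with log2 differences of 0.43 ± 0.23 (SE, adjusted p = 0.279), 0.09 ± 0.18 (SE, adjusted p = 0.744) and -0.16 ± 0.25 (SE, adjusted p = 0.683).

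Lamc1 (chr1:153218922-153332786, minus strand, ENSMUSG00000026478) stood at 9.47, 5.19 and 8.33 CPM in the standard FMR1 KO pellet and 1.13, 1.89 and 2.10 CPM in fraction 5/6. In low nuclease WT it stood at 20.6, 19.0 and 28.3 CPM against 4.07, 5.51 and 6.45 CPM. The groups did not overlap, and the log2 differences were 2.47 ± 0.24 (SE, adjusted p = 0.00219) and 2.20 ± 0.21 (SE, adjusted p = 0.0061), with 1.48 ± 0.36 (SE, adjusted p = 0.0382) in low nuclease FMR1 KO. Lamc3, a γ chain of brain and retina, was too low for the standard FMR1 KO test and rose by 2.09 ± 0.32 (SE, adjusted p = 0.012) in the low nuclease WT pellet on the log2 scale, with 1.06 ± 0.34 (SE, adjusted p = 0.0787) in low nuclease FMR1 KO, where it did not pass.

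The α chains differed from each other as well. Lama5, the α chain of vessel, pial and many epithelial laminins (chr2:180176373-180225859, minus strand, ENSMUSG00000015647), stood at 2.33, 1.99 and 3.84 CPM in the FMR1 KO pellet and 0.206, 0.531 and 0.934 CPM in fraction 5/6, a log2 difference of 2.72 ± 0.39 (SE, adjusted p = 0.00752). It rose by 1.14 ± 0.15 (SE, adjusted p = 0.00946) in the low nuclease WT pellet and by 0.82 ± 0.17 (SE, adjusted p = 0.0273) in that of FMR1 KO. Lama2, the α chain of muscle, astrocyte and pericyte laminin and the α chain with the highest RNA, stood at 9.86, 7.82 and 7.77 CPM in the FMR1 KO pellet and 6.09, 15.8 and 19.4 CPM in fraction 5/6. Those groups overlapped, and its log2 difference was -0.27 ± 0.33 (SE, adjusted p = 0.62), with 0.61 ± 0.17 (SE, adjusted p = 0.0497) in low nuclease WT, where it passed, and 0.54 ± 0.20 (SE, adjusted p = 0.104) in low nuclease FMR1 KO, where it did not. Lama4, the endothelial α chain, rose by 1.49 ± 0.25 (SE, adjusted p = 0.0148) in low nuclease WT and did not pass in the standard or the low nuclease FMR1 KO set, at 1.18 ± 0.45 (SE, adjusted p = 0.139) and 1.02 ± 0.46 (SE, adjusted p = 0.163).

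Type IV collagen is the network-forming collagen of basement membranes. Col4a2 (chr8:11312805-11449287, plus strand, ENSMUSG00000031503) stood at 6.55, 6.70 and 7.29 CPM in the standard FMR1 KO pellet and 1.24, 1.97 and 3.73 CPM in fraction 5/6, a log2 difference of 2.04 ± 0.28 (SE, adjusted p = 0.00658). In low nuclease WT it stood at 19.6, 15.4 and 24.7 CPM against 3.78, 4.99 and 7.20 CPM, a log2 difference of 2.02 ± 0.25 (SE, adjusted p = 0.00882). Both sets were without overlap, whereas in low nuclease FMR1 KO the value was 1.39 ± 0.60 (SE, adjusted p = 0.149) and did not pass. Col4a1, its partner in the trimer, lies head to head with it on the opposite strand (chr8:11198423-11312826, minus strand, ENSMUSG00000031502), and whether the counting used strand is not given in the sources used here. Col4a1 stood at 4.02, 3.19 and 5.45 CPM and 1.86, 2.12 and 6.07 CPM, and passed in no set, at 0.84 ± 0.31 (SE, adjusted p = 0.13), 0.55 ± 0.79 (SE, adjusted p = 0.629) and 0.46 ± 0.83 (SE, adjusted p = 0.727). Its low nuclease libraries ranged from 4.53 to 48.9 CPM within WT fraction 5/6 alone.

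Type VI collagen forms beaded filaments around cells. Col6a3, its longest main chain (chr1:90765923-90843971, minus strand, ENSMUSG00000048126), stood at 5.77, 3.11 and 6.97 CPM in the FMR1 KO pellet and 1.24, 2.12 and 2.57 CPM in fraction 5/6. Low nuclease gave 10.2, 9.95 and 11.1 CPM against 3.41, 3.63 and 3.19 CPM in WT and 7.02, 8.44 and 7.81 CPM against 3.06, 3.69 and 4.21 CPM in FMR1 KO. The groups were apart in all 3 sets, with log2 differences of 1.74 ± 0.27 (SE, adjusted p = 0.00984), 1.72 ± 0.13 (SE, adjusted p = 0.004) and 1.28 ± 0.15 (SE, adjusted p = 0.00989). Col6a1 and Col6a2, the chains that join Col6a3 in the trimer, rose by 1.76 ± 0.23 (SE, adjusted p = 0.00903) and 1.70 ± 0.23 (SE, adjusted p = 0.00946) in low nuclease WT, and Col6a1 also in standard FMR1 KO, by 2.06 ± 0.39 (SE, adjusted p = 0.0208). Neither passed in low nuclease FMR1 KO, at 1.65 ± 0.58 (SE, adjusted p = 0.0981) and 1.18 ± 0.40 (SE, adjusted p = 0.0874).

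Among the fibrillar chains, Col1a1 (chr11:94936224-94953042, plus strand, ENSMUSG00000001506) stood at 10.6, 6.54 and 8.33 CPM in the FMR1 KO pellet and 4.33, 3.26 and 8.40 CPM in fraction 5/6. The highest fraction 5/6 library lay above 2 of the pellet libraries, and the log2 difference after TMM scaling was 1.11 ± 0.25 (SE, adjusted p = 0.0348). In low nuclease WT the groups were apart, at 33.2, 30.6 and 48.6 CPM and 9.87, 11.6 and 14.5 CPM, a log2 difference of 1.77 ± 0.21 (SE, adjusted p = 0.00823). Col1a2, Col3a1 and Col2a1, the chains of collagens I, III and cartilage collagen II, rose in standard FMR1 KO by 0.76 ± 0.16 (SE, adjusted p = 0.03), 1.12 ± 0.26 (SE, adjusted p = 0.0421) and 2.42 ± 0.41 (SE, adjusted p = 0.0136), and 5 of the 11 fibrillar chains rose in low nuclease WT. In low nuclease FMR1 KO, Col1a1, Col1a2 and Col3a1 did not pass, at 1.18 ± 0.42 (SE, adjusted p = 0.101), 1.07 ± 0.39 (SE, adjusted p = 0.102) and 1.26 ± 0.40 (SE, adjusted p = 0.0764). Col2a1 passed in neither low nuclease set, at -5.10 ± 1.62 (SE, adjusted p = 0.0658) in WT and -4.43 ± 2.04 (SE, adjusted p = 0.174) in FMR1 KO, where single fraction 5/6 libraries stood at 352 and 226 CPM. The 1 member lower in the pellet in any set was Col5a3, a minor fibrillar chain, at -0.54 ± 0.13 (SE, adjusted p = 0.0402) in low nuclease FMR1 KO.

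The remaining types gave few calls. Of the 9 FACIT chains, Col12a1 rose in both standard FMR1 KO and low nuclease WT, by 1.99 ± 0.27 (SE, adjusted p = 0.0063) and 1.05 ± 0.16 (SE, adjusted p = 0.0124), with 0.68 ± 0.27 (SE, adjusted p = 0.131) in low nuclease FMR1 KO, where it did not pass. Col14a1 rose in low nuclease FMR1 KO, by 1.51 ± 0.29 (SE, adjusted p = 0.0243). Col9a2, the FACIT chain of cartilage fibrils with the second highest RNA of its type, stood at 1.88, 1.20 and 2.56 CPM in the FMR1 KO pellet and 1.86, 1.52 and 3.03 CPM in fraction 5/6, and passed in no set. In low nuclease WT the short-chain collagens Col8a1 and Col8a2 rose by 1.26 ± 0.20 (SE, adjusted p = 0.0132) and 1.05 ± 0.20 (SE, adjusted p = 0.0189), the transmembrane Col25a1 by 1.02 ± 0.18 (SE, adjusted p = 0.0163) and the multiplexin Col18a1 by 1.14 ± 0.21 (SE, adjusted p = 0.0168). Col8a2 was too low for the standard FMR1 KO test, and Col8a1, Col25a1 and Col18a1 passed in neither FMR1 KO set, nor did Col8a2 in low nuclease FMR1 KO. Col26a1, a short secreted collagen with a CDS of 1314 nt, overlapped between pellet and fraction 5/6, with log2 differences of -0.24 ± 0.27 (SE, adjusted p = 0.586) and 0.39 ± 0.16 (SE, adjusted p = 0.124).

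**Figure D2:**
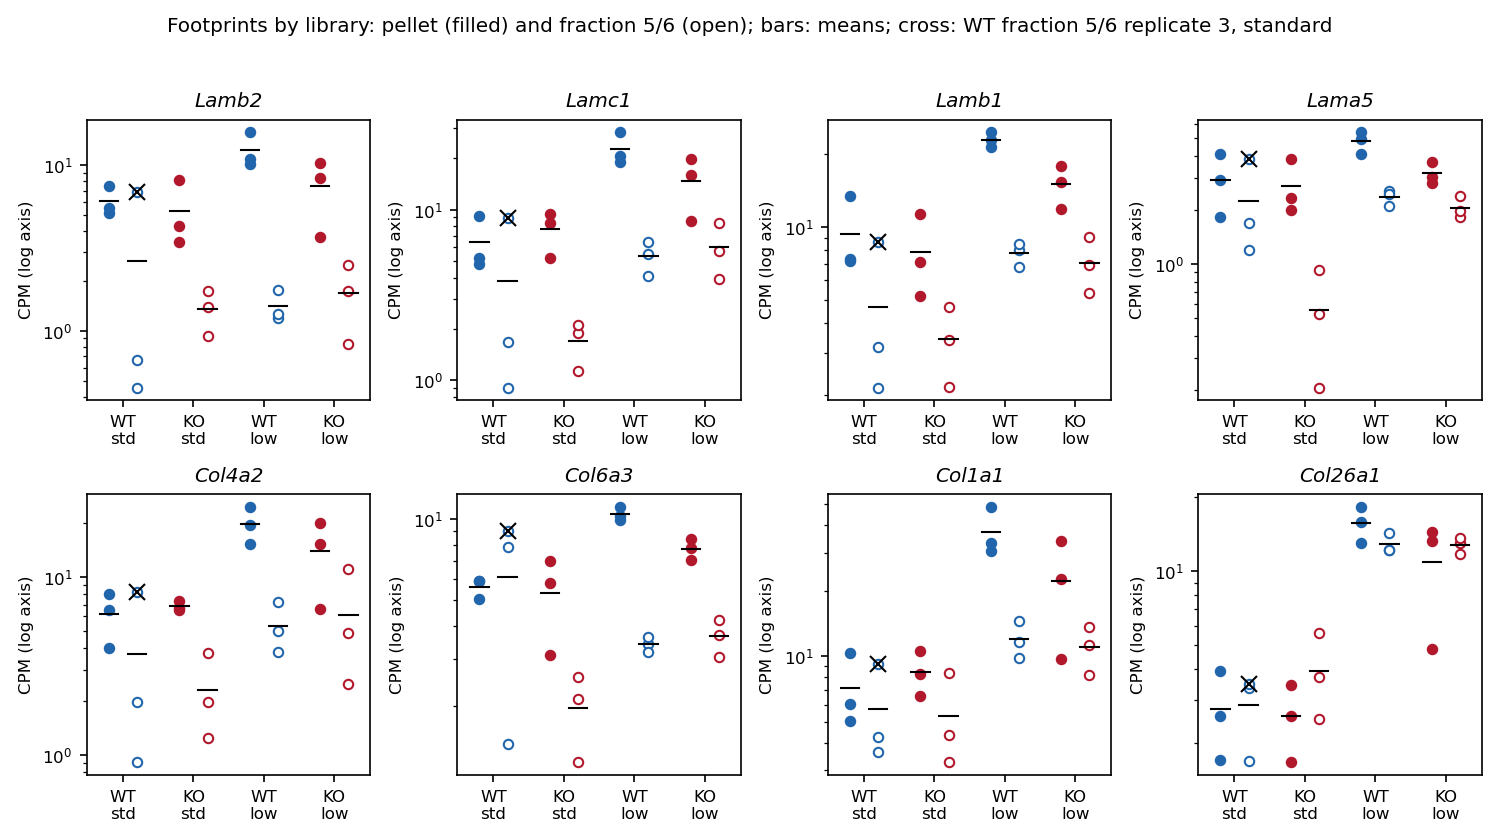
Footprint levels of 8 chains in CPM without Cdk8 on a log axis, pellet filled and fraction 5/6 open, with 1 point per library in the 4 sets and a cross for the library labelled WT fraction 5/6 standard replicate 3. Lamb2 in low nuclease WT lies at 10.2 to 15.8 CPM in the pellet and 1.19 to 1.77 CPM in fraction 5/6, and Col26a1 overlaps in each set.

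In the standard WT preparation 0 of 42 members passed by edgeR's quasi-likelihood test in either direction, beside 0.0152% of all genes higher and 0.00762% lower. An unadjusted p under 0.05 was found for 3 members and 6.24% of all genes, and DESeq2 called 0 members and 0.686% of all genes. The library labelled WT fraction 5/6 replicate 3, whose Fmr1 stood with the FMR1 KO libraries, had Lamb2 at 6.83 CPM against 0.662 and 0.454 CPM in the other WT fraction 5/6 libraries, and 5.17 to 7.47 CPM in the WT pellet. Lamc1 stood at 8.87 CPM in that library against 1.68 and 0.908 CPM in the others. With it, the log2 difference of Lamb2 was 1.26 ± 0.90 (SE, adjusted p = 0.647) and that of Lamc1 0.83 ± 0.77 (SE, adjusted p = 0.696). Without it, 2 of 43 members were higher and 0 lower, against 7.67% and 1.75% of all genes, Lamb2 at 3.39 ± 0.38 (SE, adjusted p = 0.0109) and Lamc1 at 2.27 ± 0.47 (SE, adjusted p = 0.049), and the members' median rose from 0.21 to 0.50. DESeq2 without it, a fit chosen after seeing the data, called 6 members higher and 2 lower, against 13% and 7.42% of all genes.

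By the plain order of the CPM values, all 3 pellet libraries lay above all 3 fraction 5/6 libraries for 13 of 42 members (31.0%) in standard FMR1 KO, where 5.24% of all genes did, and for 1 of 42 they lay below, against 22.7%. The count was 28 of 56 members in low nuclease WT, against 17.8% of all genes, and 10 of 55 in low nuclease FMR1 KO, against 11.4%. There 1 of 56 and 1 of 55 lay below, against 29.6% and 38.8%. In standard WT it was 1 of 42 above, against 2.22%, and 4 of 42 below, against 3.68%. Set against only the other 2 fraction 5/6 libraries, without that labelled replicate 3, it was 17 of 42 above, against 21.8%, and 6 of 42 below, against 6.86%.

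**Figure D3:**
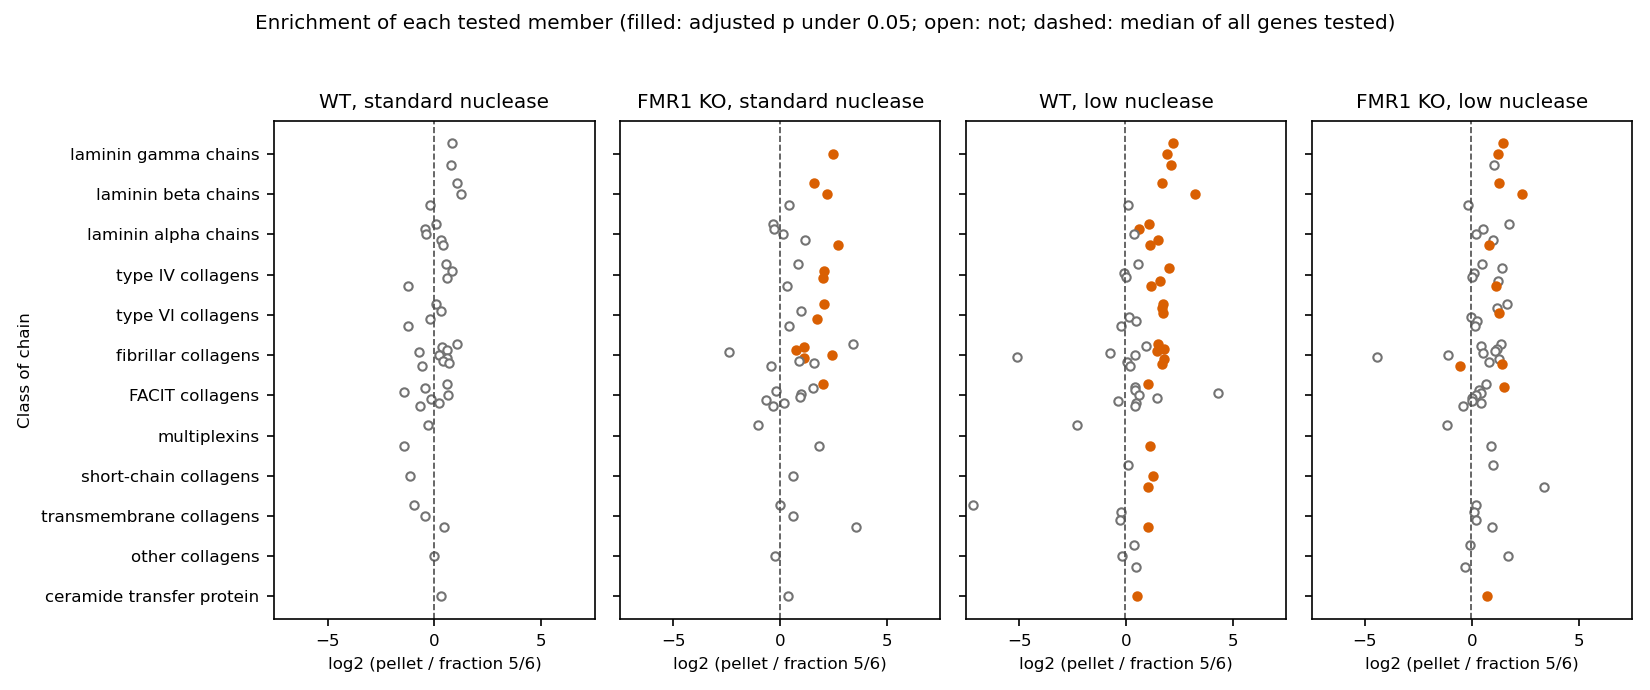
Log2 difference of pellet over fraction 5/6 after TMM scaling for each chain by type, in 4 panels for the sample sets, with filled points past the adjusted p of 0.05 and a dashed line at the median of all genes. In low nuclease WT the laminin median is 1.49 and that of collagens 0.47.

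Genes that work with these chains were listed as well, and their counts stand beside 10.1%, 14.3% and 9.31% of all genes higher in standard FMR1 KO, low nuclease WT and low nuclease FMR1 KO. Of the basement membrane partners, 7 of 16 tested rose in the standard FMR1 KO pellet, 11 of 20 in low nuclease WT and 3 of 20 in low nuclease FMR1 KO, with 0 lower in each and medians of 1.28, 1.14 and 0.97. Nid1, the nidogen that links laminin to type IV collagen, rose by 2.03 ± 0.19 (SE, adjusted p = 0.00221) and Agrn, the heparan sulfate proteoglycan agrin, by 1.30 ± 0.14 (SE, adjusted p = 0.00308) in standard FMR1 KO. The receptors of laminins and collagens gave 5 of 13, 9 of 16 and 1 of 16, among them Dag1, which encodes dystroglycan, at 1.44 ± 0.16 (SE, adjusted p = 0.00344).

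The enzymes and helpers that fold collagen in the endoplasmic reticulum gave 3 of 21, 8 of 24 and 1 of 24, which is 14.3%, 33.3% and 4.17%, with 0 lower in each and medians of 0.44, 0.72 and 0.61. Mia3, the exit site protein TANGO1 that loads procollagen into carriers, rose by 1.05 ± 0.20 (SE, adjusted p = 0.0213), 1.66 ± 0.23 (SE, adjusted p = 0.00964) and 1.42 ± 0.38 (SE, adjusted p = 0.0479), while the small prolyl isomerase Ppib stood at -0.03 ± 0.20 (SE, adjusted p = 0.946) and did not pass. Of the enzymes that cut and cross-link collagen, 2 of 6 rose in standard FMR1 KO, 4 of 12 in low nuclease WT and 3 of 13 in low nuclease FMR1 KO. The procollagen proteinase Bmp1 rose in the first and second of these, by 1.28 ± 0.30 (SE, adjusted p = 0.0412) and 1.85 ± 0.30 (SE, adjusted p = 0.0139), and stood at 1.11 ± 0.34 (SE, adjusted p = 0.0698) in the last, where it did not pass.

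The same direction was seen in other long secreted or membrane proteins made at the endoplasmic reticulum. Of the LDL receptor family and reelin, 4 of 12 rose in standard FMR1 KO, 8 of 13 in low nuclease WT and 4 of 13 in low nuclease FMR1 KO, with the endocytic receptor Lrp1 at 3.15 ± 0.16 (SE, adjusted p = 0.000889) and the secreted signal Reln at 2.67 ± 0.23 (SE, adjusted p = 0.00172) in the first. Of cadherins and protocadherins, 27 of 73, 57 of 91 and 15 of 89 rose. The medians were 1.07, 1.02 and 0.77 for the LDL receptor family and 0.78, 1.05 and 1.04 for the cadherins, beside 0.91, 0.60 and 0.68 for the collagens and laminins.

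Coding length moved with enrichment over all genes. In standard FMR1 KO, 0.926% of all genes with a CDS under 1500 nt were higher in the pellet, 34.0% of those from 3000 to 4500 nt, 54.5% of those from 4500 to 6000 nt and 67.4% of those of 6000 nt or more. The chains gave 5 of 10, 5 of 16 (31.2%) and 3 of 7 (42.9%) in the last 3 of these ranges. Split at 3000 nt, 13 of 33 long chains (39.4%) were higher, against 44.6% of all long genes, and 0 of 7 shorter chains, against 4.23%. In low nuclease WT it was 22 of 45 long chains (48.9%) against 45.5% of all long genes, and in low nuclease FMR1 KO 9 of 45 (20%) against 39.5%. The share of long chains called was thus near or below that of long genes in general, while their median log2 difference was 1.11 against 0.78 for all long genes in standard FMR1 KO, 1.05 against 0.62 in low nuclease WT and 0.79 against 0.60 in low nuclease FMR1 KO. For a CDS of 6000 nt or more the order was reversed, at 0.41 against 1.39 over 7 chains, 0.54 against 1.05 over 10 and 0.39 against 0.97 over 10. These contrasts were not tested. Across the chains themselves, Spearman's rho of enrichment with CDS length was 0.26 over 40 chains in standard FMR1 KO, 0.10 over 54 in low nuclease WT and 0.08 over 53 in low nuclease FMR1 KO, given as a description since the chains share libraries.

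**Figure D4:**
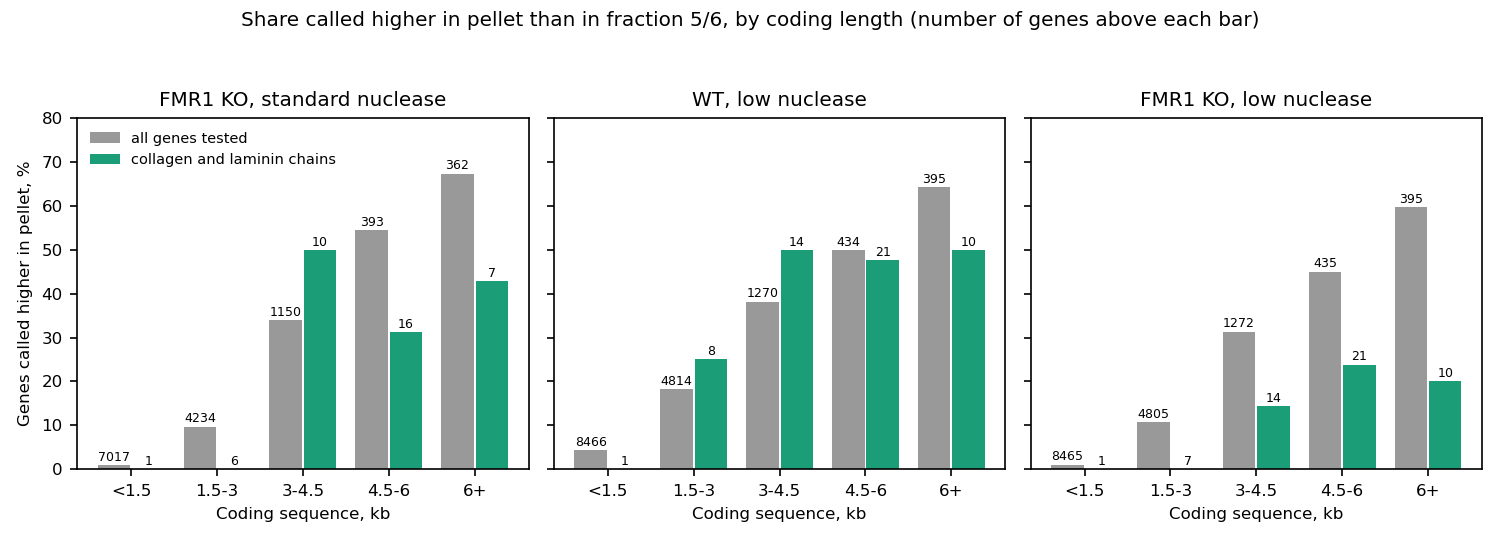
Share of genes called higher in the pellet than in fraction 5/6, in percent, by CDS length in kb, for all genes (grey) and for the collagen and laminin chains (green), with the number of genes above each bar. The grey bars climb from 0.926% to 67.4% in standard FMR1 KO, and the green bars of the long ranges reach 50% or less.

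Markers of the cells that make these chains were read beside the result. In standard FMR1 KO 0 of 5 fibroblast markers, 0 of 4 endothelial and 2 of 6 mural cell markers were higher in the pellet, in low nuclease WT 4 of 8, 2 of 7 and 5 of 8, and in low nuclease FMR1 KO 0 of 8, 0 of 7 and 1 of 8. The fibroblast markers summed to 41.8, 12.8 and 20.0 CPM in the FMR1 KO pellet and 17.2, 17.7 and 61.6 CPM in fraction 5/6, so that the groups overlapped. The parts of coding length and cell makeup in the chains' difference were not tested. With library size as the only scaling, which moved the median of all genes to -0.34, 2 members passed in standard FMR1 KO, both higher, against 1.1% of all genes higher and 0.188% lower. The number of calls there also depended on single libraries, with 6 without pellet replicate 1, 7 without pellet replicate 3 and 5 without either fraction 5/6 replicate 1 or 3. In low nuclease FMR1 KO it was 1 without pellet replicate 2 or fraction 5/6 replicate 1 or 3, 2 without fraction 5/6 replicate 2 and 3 without pellet replicate 3. Shares of all genes are not set beside these counts, so that they show only how the members' calls moved.

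Pellet footprints were next compared with the RNA of the standard preparation, the measure called occupancy. In WT 11 of 56 members had more footprints than their RNA would give by the TMM scale and 6 fewer, against 31.1% and 34.2% of all genes, but with library size as the only scaling it was 4 and 33, against 8.74% and 67.6%. In FMR1 KO 21 of 55 were higher and 5 lower, against 31.8% and 35.2%, and 4 and 18 by library size alone, against 7.95% and 62%. That scaling moved the median of all genes to -1.26 in WT and -1.17 in FMR1 KO, while TMM left it at -0.10 and -0.07. Without WT pellet replicate 3 it was 9 and 11 in WT, and without FMR1 KO RNA replicate 1 the 26 calls in FMR1 KO became 17. Directions are therefore given relative to the TMM scale, on which the members' medians were 0.12 in WT and 0.59 in FMR1 KO.

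Col6a6 and Col5a3 had the highest called rises of pellet footprints over RNA in both genotypes. Col6a6, a long type VI chain (chr9:105687809-105828160, minus strand, ENSMUSG00000043719), stood at 58.0, 54.4 and 42.3 CPM in the WT pellet and 1.37, 1.20 and 2.01 CPM in WT RNA. It stood at 40.9, 286 and 55.8 CPM in the FMR1 KO pellet and 1.51, 4.14 and 0.977 CPM in its RNA. Every pellet library exceeded every RNA library, and the log2 differences were 6.23 ± 0.24 (SE, adjusted p = 4.64e-06) and 7.18 ± 1.26 (SE, adjusted p = 0.00203). Fraction 5/6 was above the RNA too, at 79.3, 179 and 66.6 CPM in WT and a log2 difference of 7.57 ± 0.72 (SE, adjusted p = 0.000246), or 7.81 ± 0.58 (SE, adjusted p = 0.000133) without the library labelled replicate 3. Col24a1, a minor fibrillar chain, was called in the WT pellet at 4.77 ± 1.55 (SE, adjusted p = 0.0279) through replicate 1, whose libraries read 27.9, 0.0818 and 0.839 CPM.

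Col5a3 (chr9:20770050-20815067, minus strand, ENSMUSG00000004098) stood at 4.61, 10.8 and 12.7 CPM in the WT pellet, 16.7, 15.9 and 8.30 CPM in fraction 5/6 and 0.463, 0.463 and 0.538 CPM in RNA. In FMR1 KO it stood at 7.39, 9.49 and 7.85 CPM, 12.7, 7.20 and 28.5 CPM and 0.380, 0.278 and 0.702 CPM. Both footprint fractions were far above the RNA in each genotype, and the pellet exceeded it by 5.40 ± 0.42 (SE, adjusted p = 2.86e-05) in WT and 5.34 ± 0.43 (SE, adjusted p = 5.22e-05) in FMR1 KO on the log2 scale. Collagen XX showed the reverse. Col20a1, a FACIT chain (chr2:180986535-181018363, plus strand, ENSMUSG00000016356), stood at 1.89, 2.13 and 2.27 CPM in WT RNA and 2.26, 2.24 and 1.93 CPM in FMR1 KO RNA, from 212 to 332 counts a library. The WT pellet libraries held 2, 0 and 0 of its counts and the FMR1 KO pellet libraries 0, 0 and 1, and both comparisons passed (adjusted p = 0.000685 and 0.000409), with no fold given at these counts.

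**Figure D5:**
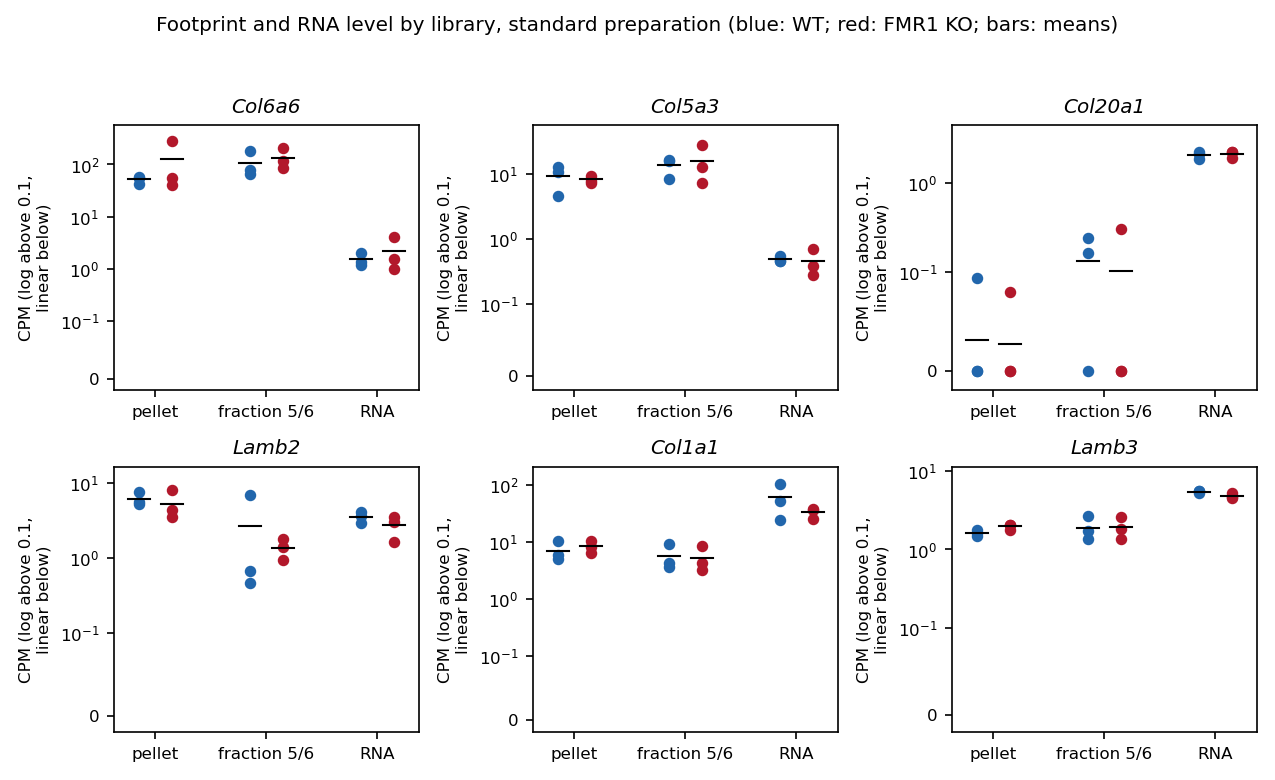
Levels of 6 chains in the pellet, fraction 5/6 and RNA of the standard preparation, in CPM without Cdk8, with 1 point per library (WT blue, FMR1 KO red) on an axis that is logarithmic above 0.1 CPM and linear below. Col6a6 footprints lie at 40.9 CPM or more over RNA of at most 4.14 CPM, and Col20a1 has RNA at 1.89 to 2.27 CPM with footprints at 0.309 CPM or less.

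Among the chains of basement membranes, Lamb2 and Lama2 had more pellet footprints than the TMM scale gives for their RNA, and Lamb1 did not pass. Lamb2 rose by 1.94 ± 0.24 (SE, adjusted p = 0.000295) in WT and 2.04 ± 0.35 (SE, adjusted p = 0.0017) in FMR1 KO on the log2 scale. Lama2 rose by 1.26 ± 0.20 (SE, adjusted p = 0.000899) and 1.28 ± 0.18 (SE, adjusted p = 0.000645), and Col6a3 by 1.37 ± 0.16 (SE, adjusted p = 0.000199) and 1.38 ± 0.18 (SE, adjusted p = 0.000538). Lamb1 stood at 0.04 ± 0.28 (SE, adjusted p = 0.916) and -0.06 ± 0.21 (SE, adjusted p = 0.816). Col1a1 fell in both, by a log2 difference of -1.93 ± 0.54 (SE, adjusted p = 0.0152) in WT and -0.87 ± 0.19 (SE, adjusted p = 0.00562) in FMR1 KO, at 5.03 to 10.6 CPM in the pellets against 24.9 to 104 CPM in RNA. Col25a1, a transmembrane collagen of neurons, passed in FMR1 KO at 3.04 ± 1.10 (SE, adjusted p = 0.044) through replicate 2, which stood at 46.2 CPM beside 3.70 and 4.25 CPM.

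Fraction 5/6 was set beside the same RNA libraries. In FMR1 KO 8 of 56 members were higher in fraction 5/6 than RNA and 15 lower, against 29.7% and 33.1% of all genes, on the TMM scale. By library size alone it was 5 and 30, against 8.11% and 55.8%. Lamc1 fell by a log2 difference of -1.81 ± 0.22 (SE, adjusted p = 0.000284), Lamb1 by -1.48 ± 0.17 (SE, adjusted p = 0.000205), Lama5 by -2.002 ± 0.42 (SE, adjusted p = 0.00424) and Col12a1 by -1.76 ± 0.24 (SE, adjusted p = 0.000445). Lamb2 stood at 0.01 ± 0.40 (SE, adjusted p = 0.981) and did not pass, while Lama2 rose by 1.70 ± 0.28 (SE, adjusted p = 0.00121). In the FMR1 KO pellet, which was compared with the same RNA, Lamc1 was called higher on the TMM scale, at 0.51 ± 0.16 (SE, adjusted p = 0.027), but its CPM was lower in every pellet library than in every RNA library (9.47, 5.19 and 8.33 against 10.8, 9.98 and 13.6), and library size alone gave -0.58 ± 0.26 (SE, adjusted p = 0.0725). In WT 13 of 56 members were higher and 5 lower, against 28.3% and 27.6%, and by library size alone 7 and 31, against 5.72% and 59.2%. It was 12 and 13, against 27.9% and 32%, when the library labelled WT fraction 5/6 replicate 3 was left out.

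FMR1 KO was then compared with WT, the question of the study. By edgeR's quasi-likelihood test 0 members passed in pellet abundance, fraction 5/6, RNA, occupancy or enrichment. Of all genes, 0% were higher and 0.0152% lower in the pellet, 0.0307% and 0.0429% in RNA, 0.0487% and 0.0183% in occupancy, and 0% in either direction in fraction 5/6 and enrichment. The counts at an unadjusted p under 0.05 were 4 of 42 in the pellet, 4 of 38 in fraction 5/6, 5 of 56 in RNA, 8 of 56 in occupancy and 7 of 47 in enrichment, beside 5.35%, 4.57%, 2.59%, 6.12% and 5.57% of all genes. The edgeR count stayed at 0 in fraction 5/6 and enrichment without the library labelled WT fraction 5/6 replicate 3. DESeq2 called Col18a1 in the pellet and in enrichment, and 0 members in the other 3. Of all genes it called 0.501% in the pellet, 0.588% in fraction 5/6, 0.147% in RNA, 0.353% in occupancy and 0.298% in enrichment. Without that library it called the same member and 0.751% of all genes in enrichment, and 0 members and 1.16% in fraction 5/6.

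Col18a1 encodes the multiplexin of basement membranes from which endostatin is cut (chr10:77052178-77166548, minus strand, ENSMUSG00000001435). It stood at 10.7, 9.65 and 9.05 CPM in the FMR1 KO pellet and 5.22, 2.62 and 4.36 CPM in the WT pellet, without overlap. In fraction 5/6 the order was turned, with 5.26, 2.80 and 1.40 CPM in FMR1 KO and 7.76, 7.83 and 18.6 CPM in WT. RNA overlapped, at 3.79, 4.75 and 5.13 CPM and 3.37, 4.22 and 6.16 CPM. The log2 difference of FMR1 KO over WT in the pellet was 1.30 ± 0.33 (SE, adjusted p = 0.862) by edgeR and 1.31 ± 0.35 (SE, adjusted p = 0.0346) by DESeq2, and the difference in enrichment was 3.22 ± 0.75 (SE, adjusted p = 0.782) by edgeR and 3.25 ± 0.75 (SE, adjusted p = 0.00689) by DESeq2. When WT fraction 5/6 replicate 3 was left out, the difference in enrichment was 2.82 ± 0.75 (SE, adjusted p = 0.613) by edgeR and 2.82 ± 0.67 (SE, adjusted p = 0.0065) by DESeq2. In the low nuclease pellet, where FMR1 KO stood at 2.91, 8.12 and 5.51 CPM and WT at 6.61, 5.96 and 8.29 CPM, the genotypes overlapped.

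In RNA, all 3 FMR1 KO libraries lay below all 3 WT libraries for 10 of 56 members (17.9%), where 5.76% of all genes did, and above for 0, where 2.26% did. These were Lamb1, Lama4, Lamc3, Col6a3, Col6a4, Col4a5, Col12a1, Col16a1, Col9a2 and Col8a2. The lowest unadjusted p was that of Lamc3, at 0.951, 0.899 and 1.07 CPM in FMR1 KO and 2.50, 1.64 and 1.56 CPM in WT, a log2 difference of -0.94 ± 0.25 (SE, adjusted p = 0.999). The members' median was -0.23 and that of all genes 0.00. Summed fibroblast, endothelial and mural marker RNA was highest in WT replicate 1, at 420, 20.4 and 72.4 CPM, and overlapped between the genotypes.

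The genotype comparison of the low nuclease preparation gave 0 members by edgeR in the pellet and 0 in RNA, with 7 of 55 and 5 of 56 at an unadjusted p under 0.05 where 4.28% and 2.2% of all genes had one, beside 0% of all genes higher and 0.0197% lower in the pellet and 0% either way in RNA. DESeq2 called Col5a3 in the pellet, at 1.47 ± 0.23 (SE, adjusted p = 1.35e-07), and 0 in RNA, beside 0.577% and 0.00635% of all genes. With the 3 RNA libraries that stood apart left out, 2 WT libraries and 1 of FMR1 KO remained, and 2 members were lower and 0 higher in RNA by edgeR, where 27 and 8 of 16304 genes were. Col5a3 stood at 38.7, 48.2 and 40.1 CPM in the FMR1 KO pellet and 23.1, 12.3 and 14.6 CPM in the WT pellet, without overlap, and edgeR gave 1.45 ± 0.21 (SE, adjusted p = 0.338). In the standard pellet its genotypes overlapped.

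Low nuclease pellets were compared with RNA of their own preparation, and 2 of 56 members in WT were higher and 33 lower, against 26.6% and 25.5% of all genes. Without RNA replicate 2, which stood apart, it was 3 and 28, against 29.2% and 29.8%. With library size as the only scaling 0 of 56 passed, against 1.68% higher and 0.27% lower, and by the plain order of CPM 2 lay above and 1 below, against 24.2% and 1.26% of all genes. Against the RNA of the standard preparation the same WT pellets gave 37 higher and 1 lower, against 31.5% and 32.9% of all genes, so that the members' direction turned with the RNA set. Summed over the 55 chains, RNA was 966 to 1701 CPM in the 3 low nuclease RNA libraries that did not stand apart, 382 to 403 CPM in the 3 that did and 216 to 406 CPM in the 6 standard RNA libraries. Endothelial markers summed to 26.4 to 78.0 CPM and choroid plexus markers to 133 to 317 CPM in those first 3 libraries, above 11.5 to 20.4 and 36.2 to 117 CPM in standard RNA, and their part in the chains' levels was not tested. In FMR1 KO 2 of 55 members were higher and 7 lower, against 16.1% and 12.9%, 28 and 1 against the standard RNA, where 27.1% and 34% of all genes were, and 1 and 1 by library size alone, against 1.3% and 0.0984%. This result rested on single libraries, with 1 call without pellet replicate 3 or RNA replicate 2, 2 without pellet replicate 1, and 15 and 18 without RNA replicate 1 and 3. In WT it was 23 without pellet replicate 2 or RNA replicate 3.

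Col4a2 followed this pattern, with a log2 difference of pellet over RNA of -2.08 ± 0.27 (SE, adjusted p = 0.000774) in low nuclease WT against its own RNA and 1.31 ± 0.27 (SE, adjusted p = 0.00357) against the standard RNA. Col5a3 was higher than either RNA set, at 3.39 ± 0.42 (SE, adjusted p = 0.000656) and 5.56 ± 0.25 (SE, adjusted p = 8.83e-06).

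The standard pellet was also compared with the low nuclease pellet. In WT 0 of 54 members were higher in the standard pellet and 22 lower, against 15% and 24% of all genes, and in FMR1 KO 1 of 54 was higher and 6 lower, against 7.42% and 9.54%. Without 1 library the WT count was 10 (standard replicate 1), 14 (standard replicate 2 or low nuclease replicate 1) or 13 (low nuclease replicate 3), and the FMR1 KO count of 7 became 1 to 3 or, without low nuclease replicate 1, 14. Lamc1 stood at 4.79, 5.23 and 9.23 CPM in the standard and 20.6, 19.0 and 28.3 CPM in the low nuclease WT pellet, and Col1a1 at 5.03, 6.05 and 10.3 CPM and 33.2, 30.6 and 48.6 CPM. Both were lower in every standard library. In WT the widest called falls were those of Col8a2, Col20a1 and Col9a3. Col8a2 held 2, 2 and 1 counts and Col20a1 2, 0 and 0 in the standard WT pellet, so that no fold is given for them. Col9a3 fell by a log2 difference of -2.79 ± 0.40 (SE, adjusted p = 0.00545). The member higher in the standard FMR1 KO pellet was Col18a1, at 1.39 ± 0.36 (SE, adjusted p = 0.0483).

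Positions at which footprints pile up were deposited as peaks for the 12 standard footprint libraries, with 11389 to 36435 intervals a library. None of the 55 chains held an interval in any library. Col4a3bp held 22 in all, with 8, 2 and 1 in the pellets of WT, 2, 1 and 2 in those of FMR1 KO, 4, 0 and 1 in WT fraction 5/6 and 0, 1 and 0 in FMR1 KO fraction 5/6. Its footprint levels were above those of most chains, at 57.1, 50.6 and 62.3 CPM in the WT pellet.

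The depth of each chain is set beside this count. Of all genes with 400 to 600 counts summed over the 6 standard pellet libraries, 18.9% held a peak in at least 1 of them, and 5 chains lay in that range, Lamb2, Lamc1, Col4a2, Col6a3 and Col18a1. Of those with 600 to 1000 counts, 35.0% held one, and 7 chains lay there, among them Lamb1, Lama2, Col1a1 and Col1a2. Col24a1 and Col25a1 lay there mostly through 1 library each, with 593 of 628 and 579 of 861 counts. These ranges match genes on summed counts and not on CDS length, which was long for the chains, and the part of length was not tested. Col6a6 had 7309 counts, and 83.5% of the 1237 genes with 5000 to 10000 counts held a peak.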

How the data were processed

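RPFs of 24 libraries and RNA of 12 libraries from the brains of mice at postnatal day 5 were analysed. The authors made the counts by trimming reads with Cutadapt 2.10, taking out ribosomal and non-coding RNA with Bowtie2 2.3.5, aligning to GRCm38 (Ensembl 102) with STAR 2.7.8a, removing PCR duplicates and assigning reads to genes with featureCounts 2.2.0. The deposited counts are whole numbers without scaling. Removing duplicates by position can cap the counts of short, heavily covered genes, and whether it did so here was not tested. Cdk8 alone held 47.0% of the 40174168 counts of standard WT pellet replicate 1. The peak heights are, as deposited by the authors, footprint coverage signal per library on transcripts, not scaled between libraries. Columns were matched to samples by their labels.

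Rows of genes that GENCODE M21 calls protein-coding were tested, without Cdk8. Rows with no gene name, 92 in all with 0.437% of the counts, stayed out. edgeR 4.0.16 in R 4.3.3 filtered genes with filterByExpr, scaled by TMM and gave quasi-likelihood tests with Benjamini-Hochberg adjustment over all genes tested, with the 2 groups compared in a fit (all 4 for interactions), in 19 comparisons. CPM values are not TMM-scaled. Peaks within 6 nt were merged. The text names the 2 chains of each type with the highest RNA, except 1 that is not reported here, the called chains with the widest changes of each comparison, and others that a count needed. The members, the gene lists and the cell type markers were chosen with earlier results of these data known. The scripts were tested on simulated data, where 62% of genes changed by 2 on the log2 scale were recovered in the standard FMR1 KO enrichment and 100% in FMR1 KO against WT RNA. The changed genes were drawn from those above a cut on mean CPM, so that these shares do not cover chains at lower levels. Alternatives were the replicate block, other filters, scaling by library size alone, DESeq2 1.42.0 and leaving out each library. Replicate numbers paired the libraries only in the low nuclease WT comparison of pellet with fraction 5/6 (r = 0.19, 0.16 and 0.25 over 11918 genes), taken from the data, and the block left 26 calls there. The authors' own comparisons, fragment lengths and proteins were not used here.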

Additional observations from a re-analysis of the deposited data

Results flagged for a closer look

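Col18a1 and Col4a6 moved in opposite directions in different sample sets, with every library on its side. For Col18a1, all 3 pellet libraries lay below all 3 fraction 5/6 libraries in standard WT and above them in standard FMR1 KO and in low nuclease WT, with log2 differences of -1.44, 1.82 and 1.14. Their adjusted p was 0.64, 0.0713 and 0.0168 by edgeR's quasi-likelihood test, so that only the last passed. The difference between the genotypes in the standard preparation was 3.22 ± 0.75 on the log2 scale (SE, adjusted p = 0.782 by edgeR's quasi-likelihood test, 0.00689 by DESeq2), and leaving out WT fraction 5/6 replicate 3 gave 2.82 ± 0.75 by edgeR (SE, adjusted p = 0.613) and 2.82 ± 0.67 by DESeq2 (SE, adjusted p = 0.0065). The standard WT value was then -1.001. That between the preparations was not tested. Its standard WT fraction 5/6 libraries stood at 7.76, 7.83 and 18.6 CPM, the last being the library labelled replicate 3.

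Col4a6, a type IV chain of smooth muscle and epithelial basement membranes, was lower in the pellet than in fraction 5/6 in every standard WT library, at a log2 difference of -1.24 (-1.41 without the library labelled replicate 3), and higher in every low nuclease WT library, at 1.16. With all libraries the adjusted p was 0.64 and 0.048 by edgeR's quasi-likelihood test, so that only the rise passed. The difference between these log2 values was not tested. The standard levels were 0.987, 1.14 and 1.26 CPM in the pellet and 3.01, 2.72 and 2.20 CPM in fraction 5/6.

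Between the standard and the low nuclease pellet, Col18a1 was lower in every standard WT library. Its log2 difference there was -0.22 ± 0.31 (SE, adjusted p = 0.6) and did not pass, and 60.8% of all genes were lower in every standard WT library. Col18a1 was higher in every standard FMR1 KO library, at 1.39 ± 0.36 (SE, adjusted p = 0.0483), where 2.89% of all genes were. The difference between the genotypes was not tested.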

How the results depend on the processing

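Counts of members called (higher and lower together) are given. Where no share of all genes stands beside a count, here or with a library left out, it shows only how the members' calls moved. Such a count does not show whether the members moved apart from all genes. Library size alone in place of TMM gave 37 for pellet against RNA in WT (17 by TMM) and 22 in FMR1 KO (26), 38 for fraction 5/6 against RNA in WT (18) and 35 in FMR1 KO (23), mostly lower instead of mixed, 2 for enrichment in standard FMR1 KO (13), 0 for low nuclease pellet against RNA in WT (35) and 2 in FMR1 KO (9), and 37 for the standard against the low nuclease pellet in WT (22) and 13 in FMR1 KO (7). It moved the median of all genes by more than 0.1 (log2) in each of these. DESeq2 gave 1 in place of 0 for FMR1 KO against WT in the pellet, in enrichment and in the low nuclease pellet, 18 for low nuclease pellet against RNA in FMR1 KO (9), 26 for low nuclease enrichment in FMR1 KO (11) and 11 for the standard against the low nuclease pellet in FMR1 KO (7). The replicate block gave 8 for enrichment in standard FMR1 KO, 23 for that in low nuclease FMR1 KO and 2 for the standard against the low nuclease pellet in FMR1 KO, where the numbers are not known to pair libraries, and moved no other count by over 1.5 times. With standard RNA, low nuclease pellet against RNA turned to mostly higher, with 38 in WT and 29 in FMR1 KO, and turned to higher for Col8a1 (1.91 in WT, 1.74 in FMR1 KO), Col4a2 (1.31, 1.24), Col11a2 (1.07 in WT) and Col25a1 (1.17 in FMR1 KO). Omitting the low nuclease RNA libraries labelled FMR1 KO replicates 2 and 3, chosen after seeing the data, left 1 RNA library, assumed to vary like the pellets, and gave 3 higher and 6 lower, which says nothing of stability. Omitting all 3 RNA libraries that stood apart left 2 WT against 1 FMR1 KO library, assumed to vary like WT, and gave 2 members lower in place of 0 between the genotypes, beside 8 higher and 27 lower of 16304 genes. DESeq2 without WT fraction 5/6 replicate 3, also chosen after seeing the data, gave 28 for fraction 5/6 against RNA in WT, with 13 higher and 15 lower, 8 for enrichment in standard WT and 1 for FMR1 KO against WT in enrichment. The cause was not tested for any of these. Of the 22 peaks on Col4a3bp, 0 reached 2 times the median height.

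Leaving out each library in turn gave 12 to 20 for pellet against RNA in WT and 17 to 26 in FMR1 KO, 13 to 25 and 19 to 23 for fraction 5/6 against RNA, 0 to 2 for enrichment in standard WT and 5 to 11 in standard FMR1 KO, 20 to 26 and 1 to 14 for low nuclease enrichment, 23 to 36 and 1 to 18 for low nuclease pellet against RNA, and 10 to 30 and 1 to 14 for the standard against the low nuclease pellet, each in WT and then FMR1 KO. The genotype comparisons stayed at 0. Over 51 results for single members, namely up to 3 called higher and 3 called lower with the widest changes in each comparison, 515 of 628 alternative values kept their direction and side of the threshold, 107 no longer passed and 6 reversed. Small changes of single chains could be missed in footprints, since 7% of genes changed by 1 on the log2 scale were recovered on simulated data in the standard FMR1 KO enrichment, 9% in that of low nuclease WT and 96% in FMR1 KO against WT RNA, and the parts of depth and of spread between libraries were not tested. The changed genes were drawn from those with a mean over 5 CPM, with Cdk8 counted. These shares therefore do not cover lower chains, such as Lama5 and Col2a1 in the standard footprints.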

Other observations

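Single libraries with a level at least 10 times that of the next library of the group, at 10 CPM or more, were found 20 times. Of these, 6 were in low nuclease FMR1 KO RNA replicate 1, whose group's other 2 libraries stood apart as a whole. The other 14 lay in 13 genes, 10 of them in the low nuclease preparation. Col13a1, a transmembrane collagen, stood at 515 CPM in low nuclease WT fraction 5/6 replicate 1 and at 4.84 CPM in the next library. Lama1, the α chain of the early embryonic basement membrane, stood at 418 CPM in low nuclease FMR1 KO pellet replicate 3 against 4.58 CPM, and at 128 CPM in fraction 5/6 replicate 1 against 6.23 CPM. Col2a1 stood at 226 CPM in that same fraction 5/6 library against 1.87 CPM, and Col19a1 at 144 CPM in low nuclease WT pellet replicate 3 against 5.50 CPM. In the standard preparation there were 4 such values, Col24a1 in WT pellet replicate 1 (27.9 CPM), Col28a1 in WT fraction 5/6 replicate 1 (21.2 CPM), Col25a1 in FMR1 KO pellet replicate 2 (46.2 CPM) and Col7a1 in FMR1 KO fraction 5/6 replicate 2 (19.7 CPM).

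In the low nuclease RNA, Col8a1, a short-chain collagen of vessels and the eye, stood at 106 CPM in WT replicate 2 and at 214 and 270 CPM in FMR1 KO replicates 2 and 3, the libraries that stood apart, against 5.97 to 9.89 CPM in the other 3. Col6a6 stood at 89.4, 49.1 and 67.8 CPM in the same 3 libraries against 0.672 to 3.70 CPM in the others, while its low nuclease pellet footprints stood at 19.0 to 163 CPM.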
